A study of Arabidopsis thaliana with 18 samples.

Results

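Plastid-encoded transcripts were read across imbibed seeds and young seedlings of Arabidopsis thaliana by taking every probe set of the ATH1 array that is annotated to exactly 1 gene of the plastid genome. This gave 69 probe sets for 69 genes, out of 22746 probe sets tested, of which those annotated to 1 gene name 13356 genes. A further 8 plastid probe sets carry several genes and were left out, and the gene table lists 78 plastid protein gene symbols in all. By the role of the product, the 69 members comprise 5 subunits of photosystem I, 15 of photosystem II, 6 of the cytochrome b6f complex, 6 of ATP synthase, 10 of the NADH dehydrogenase-like (NDH) complex, the large subunit of Rubisco, 4 subunits of the plastid RNA polymerase, 7 proteins of the large and 8 of the small ribosomal subunit, and 7 others.

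The arrays fall into 8 groups. prt6-1 carries a lesion in PRT6, an E3 ubiquitin ligase that recognises proteins with arginine at the N terminus; ate1 ate2 lacks both arginyl-tRNA protein transferases, which add that arginine; Col-0 is the wild type. Whole seeds of prt6-1 and Col-0 (3 arrays each) were after-ripened, stratified in the cold for 48 h and imbibed for 24 h at 22 °C under constant light of 150 µmol per square metre per second, so no ate1 ate2 seeds were measured. Whole 7-day-old seedlings of prt6-1, ate1 ate2 and Col-0 (2 arrays per group) were grown from seed chilled for 3 days, at 23 °C with 16 h of light a day at 80 µmol on 1% sucrose, and were then held for 2 h in dim light of 6.5 µmol, starting when the light period ended, either under 99.995% argon (hypoxia) or in air. Seeds and seedlings thus differed in organ, age, medium, light and experiment at once, and these cannot be told apart. The table used here names no probe set for PRT6, ATE1 or ATE2, so the lesions themselves were not checked.

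The plastid genome encodes part of the photosynthetic apparatus and part of the machinery that expresses it; the remaining subunits come from nuclear genes. Plastid genes are transcribed by a bacterial-type polymerase with plastid-encoded core subunits (PEP) and by nuclear-encoded phage-type polymerases (NEP). Photosystem genes and rbcL rely mainly on PEP, whereas rpoB, rpoC1, rpoC2, accD and clpP are read mainly by NEP, and many genes have promoters for both. In germinating seeds the plastids are undifferentiated, and the photosynthetic genes come into use as they become chloroplasts. Most plastid transcripts lack the long poly(A) tails from which the labelling kit primes, so a value here reflects how well a transcript was labelled as well as its amount. In samples of whole organs, fewer cells or plastids cannot be told apart from less RNA in each of them.

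All values are log2 expression values. Within a group, arrays correlated at 0.986 to 0.995 in seeds and 0.995 to 0.997 in seedlings over all probe sets, and array medians lay between 6.70 and 6.88. The plastid members varied between replicates as a block in some groups. In Col-0 air seedlings 62 of 69 members were higher on replicate 1 than on replicate 2, with a median difference of 0.43, and in ate1 ate2 air seedlings 62 were, with a median difference of 0.29, whereas the medians over all probe sets in these groups were 0.01 (Col-0) and -0.02 (ate1 ate2). The counts were 49 in prt6-1 hypoxia, 34 in ate1 ate2 hypoxia, 56 in Col-0 hypoxia and 31 in prt6-1 air seedlings. Of all probe sets, 46.2%, 56%, 40.3% and 57.8% were higher on replicate 1 in these groups, in the same order. The shares were 52.4% in Col-0 air and 46.5% in ate1 ate2 air seedlings. Both air arrays of Col-0 enter each comparison against Col-0 in air equally, and with 2 arrays neither can be named the deviating one. Counts of calls, medians or single values are therefore given without 1 of them in places, but not for every call that changed. The variance was estimated over all groups of a fit. A group left with 1 array adds nothing to it, so counts with an array left out reflect that estimate as well as the levels. Hypoxia genes checked the treatment: 5 of 5 were called higher under hypoxia in each of prt6-1, ate1 ate2 and Col-0 (limma, adjusted p under 0.05). Of 9 seed storage and oil body markers none had a probe set of its own here, and of 6 root markers only EXPA7 and EXPA18 did, so the labelled organs were checked by the nuclear photosynthesis genes given with the seed comparison.

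The median level over the 69 members was lower on each of the 6 seed arrays than on each of the 12 seedling arrays. It was 9.15, 9.43 and 8.76 in prt6-1 seeds and 9.11, 8.58 and 8.83 in Col-0 seeds. In seedlings under hypoxia it was 10.20 and 10.00 in prt6-1, 10.28 and 10.26 in ate1 ate2, and 10.23 and 9.85 in Col-0. In seedlings in air it was 9.78 and 9.69 in prt6-1, 10.13 and 9.52 in ate1 ate2, and 10.44 and 9.81 in Col-0. The highest and the lowest seedling values were both in air, and the 2 Col-0 air arrays spanned most of the seedling range.

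The functional classes differed in this. For the 20 photosystem members the median was 9.33 ± 0.32 in prt6-1 seeds and 9.10 ± 0.12 in Col-0 seeds (SD over arrays, n = 3 each), and group means in seedlings ran from 10.13 ± 0.12 in prt6-1 air to 10.64 ± 0.06 in ate1 ate2 hypoxia (n = 2 each). The NDH members had 6.16 ± 0.17 in prt6-1 seeds and 5.86 ± 0.27 in Col-0 seeds, against seedling means of 7.87 to 8.35. ATP synthase members had 8.79 ± 0.28 in prt6-1 seeds and 8.60 ± 0.18 in Col-0 seeds, against 9.43 to 10.00 in seedlings.

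For the 15 ribosomal protein members the median level in seeds was not below that in seedlings: 11.37 ± 0.30 in prt6-1 seeds and 11.30 ± 0.11 in Col-0 seeds, against group means of 10.61 to 11.19 in seedlings. This is a median of levels and does not say that most members were higher: against air seedlings of the same genotype, 12 of the 15 differences were above 0 in prt6-1 seeds (median 0.55) and 7 of 15 in Col-0 seeds (median -0.28). The 4 RNA polymerase members had 9.15 ± 0.34 in prt6-1 seeds and 8.83 ± 0.36 in Col-0 seeds, against 7.90 to 8.64 in seedlings. Within each array the ribosomal class median exceeded the photosystem class median by 1.94 to 2.29 in seeds and by 0.28 to 0.90 in seedlings. That within-array difference separated all seed arrays from all seedling arrays.

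**Figure D1:**
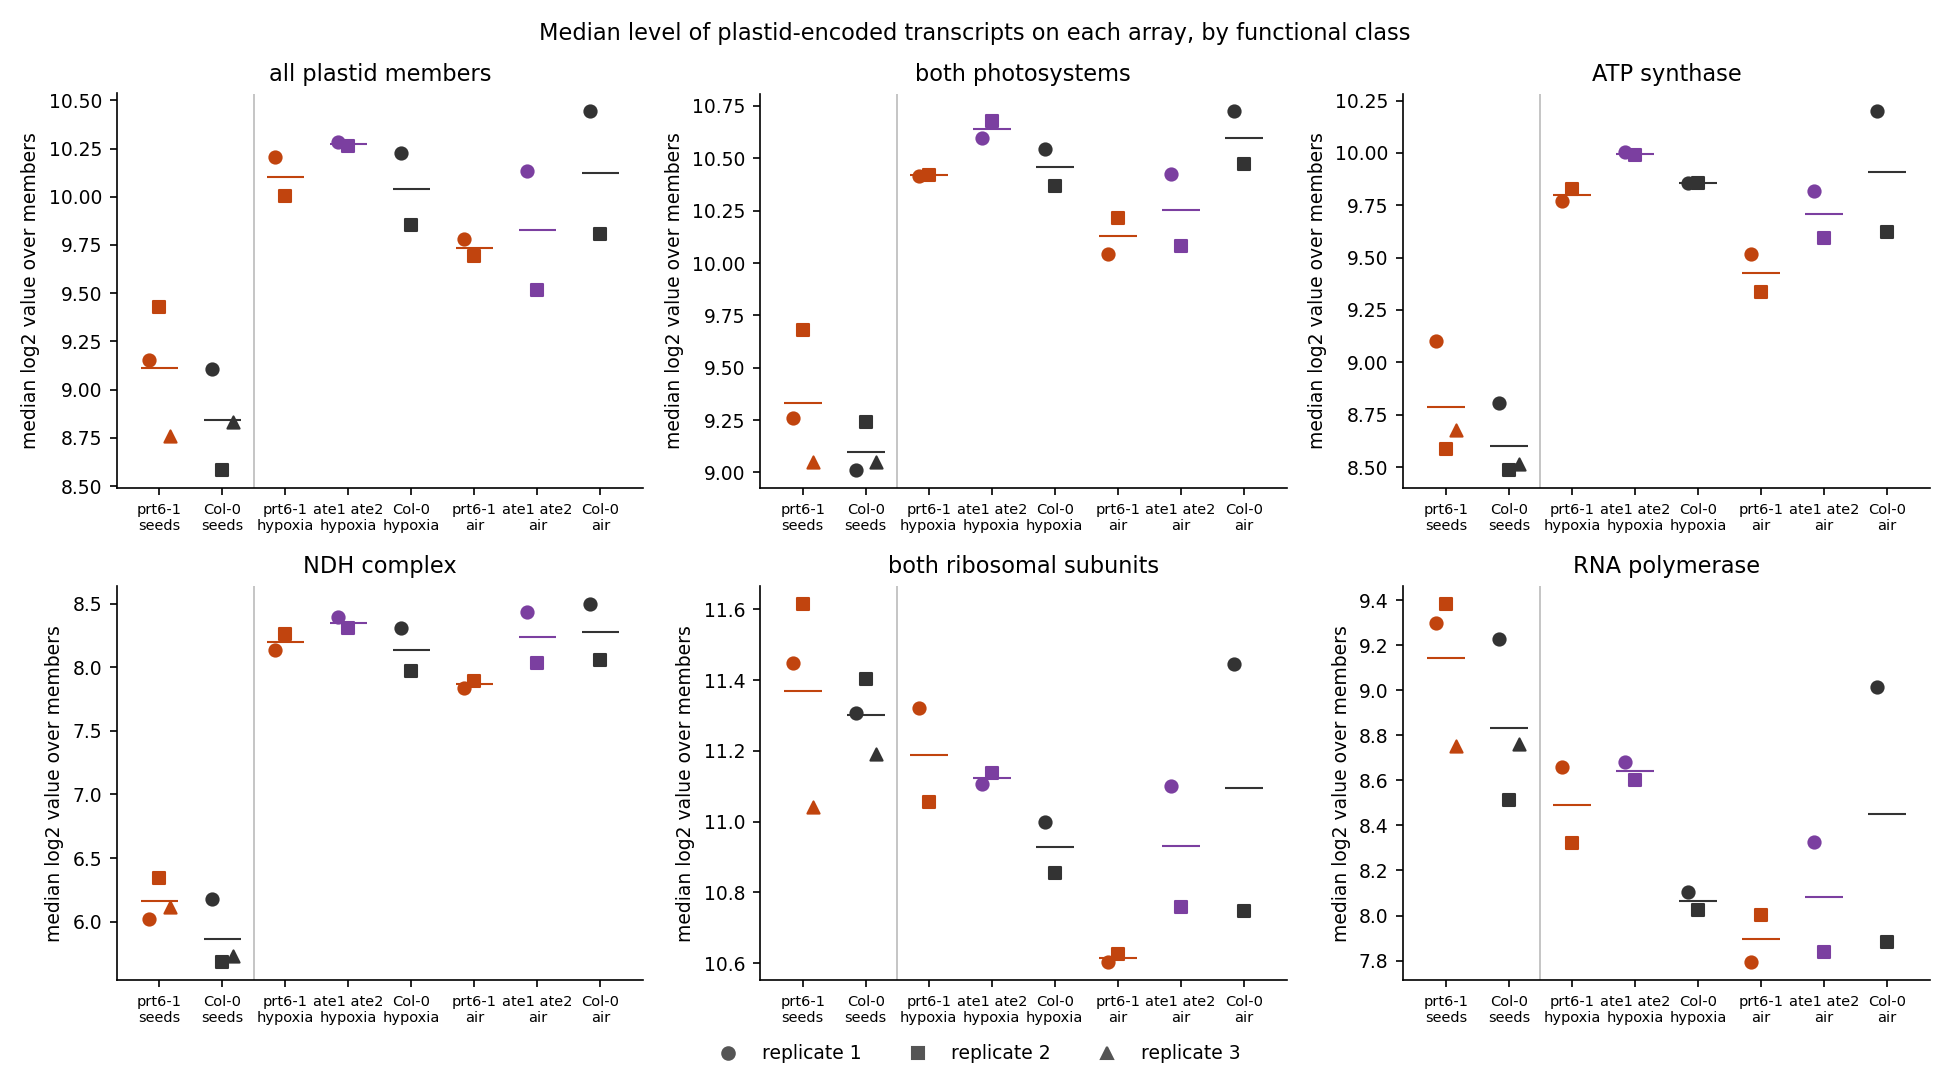
Median log2 value over members on each of 18 arrays (y) for all members and 5 functional classes, by group (x); symbols mark the replicate and short lines the group mean. Photosystem, ATP synthase and NDH medians are lower on all seed arrays than on the seedling arrays, while RNA polymerase and ribosomal medians are not; Col-0 air replicate 1 (10.44 over all members) is the highest array in the first panel.

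Between 2 tissues, 41 members (59.4%) were lower on all 6 seed arrays than on all 12 seedling arrays, against 21.8% of all probe sets, and 4 members (5.80%) were higher, against 29.1%. The 4 were rpoC2, rpl36, rpl14 and rps2, an RNA polymerase subunit and 3 ribosomal proteins. The 41 included 14 of 15 photosystem II members, 9 of 10 NDH members, 5 of 6 ATP synthase members and rbcL, but 1 of 15 ribosomal members (rpl33) and no RNA polymerase member. Over all 18 arrays the range was widest for psbN (3.74), ndhJ (3.46) and psbA (3.43), and narrowest for petD (0.61), ndhF (0.73) and rpoB (0.78). The narrow ranges belong to dim members, since petD, ndhF and rpoB had no value above 4.77.

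Set against air seedlings of the same genotype, seeds had lower transcripts for nearly every photosynthetic complex and higher ones for part of the gene expression machinery. In prt6-1, 41 members fell and 13 rose in seeds, with a median difference of -0.71 (0.13 over all probe sets). In Col-0, 49 fell and 4 rose, with a median of -1.19 (0.14 over all probe sets). Of all probe sets, 27.7% were called lower and 37.2% higher in the prt6-1 comparison, and 27.0% lower and 38.0% higher in the Col-0 comparison (limma, Benjamini-Hochberg adjusted p under 0.05). In prt6-1, 48 members were below 0, against 40.5% of all probe sets, and in Col-0 57 were, against 39.5%.

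Photosystem II was lowered throughout. Of its 15 members, 14 fell in prt6-1 seeds (median -1.42) and 15 in Col-0 seeds (median -1.62). psbA, which encodes the D1 reaction centre protein, had 6.22, 6.31 and 6.12 in prt6-1 seeds, against 8.77 and 9.05 in prt6-1 air seedlings. In Col-0 it had 6.56, 6.0 and 6.15 in seeds, against 9.36 and 9.43 in air seedlings. Every seed array was far below every seedling array. The differences were -2.70 (SE 0.15, limma adjusted p = 4.27e-11) in prt6-1 and -3.16 (SE 0.15, adjusted p = 5.46e-12) in Col-0, so that seeds were 6.49-fold and 8.94-fold lower. psbN, a small protein assigned to photosystem II, changed as much: it had 5.11, 5.05 and 4.88 in prt6-1 seeds, against 8.01 and 8.25 in prt6-1 air seedlings, and 5.06, 5.51 and 5.03 in Col-0 seeds, against 8.28 and 8.38 in Col-0 air seedlings. Its differences were -3.11 and -3.13 in prt6-1 and Col-0. psbD, for the D2 protein, fell by 1.56 in prt6-1 and by 1.29 in Col-0, and psbH, for a small phosphoprotein, had -1.87 and -2.12, both called lower.

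In photosystem I, 3 of 5 members fell in each genotype. psaB, one of the 2 reaction centre proteins, had 10.08, 10.19 and 9.96 in prt6-1 seeds, against 11.83 and 11.70 in prt6-1 air seedlings, and 10.04, 9.62 and 9.86 in Col-0 seeds, against 12.70 and 12.15 in Col-0 air seedlings. The groups did not overlap, and the differences were -1.69 (SE 0.16) and -2.58 (SE 0.16). Its operon partner psaA, for the other reaction centre protein, differed by 0.06 in prt6-1 (limma adjusted p = 0.773) and by -0.13 in Col-0 (adjusted p = 0.531). psaC, the iron-sulphur subunit, differed by -0.08 in Col-0 and was not called in either genotype. psaA reached at most 6.23 and psaC at most 5.22 on any of the 18 arrays.

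The complexes between and beyond the photosystems followed photosystem II. Of 6 cytochrome b6f members, 4 fell in each genotype, led by petA for cytochrome f (-1.81 in prt6-1, -2.43 in Col-0) and petL (-1.70 and -2.34). petB, for cytochrome b6, fell by 0.33 in prt6-1 and by 0.92 in Col-0. Of 6 ATP synthase members, 5 fell in prt6-1 (median -1.06) and 6 in Col-0 (median -1.32). The largest was atpI, a subunit of the membrane part, with -1.88 (SE 0.27) and -2.76 (SE 0.27), and atpB, for the catalytic beta subunit, fell by 1.10 and 1.38. atpA, for the alpha subunit, had 10.30, 9.76 and 9.92 in prt6-1 seeds, against 10.19 and 10.05 in prt6-1 air seedlings, and 9.79, 9.64 and 9.83 in Col-0 seeds, against 11.04 and 10.49 in Col-0 air seedlings. It was thus lower in all Col-0 seeds, while the prt6-1 groups overlapped.

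Of the 10 NDH members, which form a chloroplast complex that returns electrons to the plastoquinone pool, 9 fell in each genotype (median of all 10: -1.03 in prt6-1, -1.50 in Col-0). ndhJ and ndhK led with -2.08 and -1.98 in prt6-1 and -2.78 and -2.77 in Col-0. ndhF, at the dim end with values of 3.45 to 4.18, had 0.30 in prt6-1 (adjusted p = 0.0496) and 0.20 in Col-0 (adjusted p = 0.179). rbcL, for the carbon-fixing large subunit of Rubisco, had 8.64, 8.64 and 8.14 in prt6-1 seeds, against 10.36 and 10.65 in prt6-1 air seedlings, and 8.35, 8.33 and 8.33 in Col-0 seeds, against 11.34 and 10.61 in Col-0 air seedlings. The seed arrays were all lower, with differences of -2.03 (SE 0.18) in prt6-1 and -2.64 (SE 0.18) in Col-0.

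The genes of the expression machinery behaved differently. No RNA polymerase member fell in either genotype; 3 of 4 rose in prt6-1 seeds and 1 of 4 in Col-0 seeds. rpoC2, for the beta'' subunit, had 9.15, 9.34 and 8.48 in prt6-1 seeds, against 7.17 and 7.03 in prt6-1 air seedlings, and 9.11, 8.44 and 8.83 in Col-0 seeds, against 8.41 and 7.16 in Col-0 air seedlings. All seeds were higher, but Col-0 air replicate 1 lay close to the lowest seed array. The differences were 1.89 (SE 0.33, limma adjusted p = 6.32e-05) and 1.01 (SE 0.33, adjusted p = 0.0118); without Col-0 air replicate 2 the Col-0 value was 0.38 (adjusted p = 0.357). rpoA, for the alpha subunit, rose by 0.98 in prt6-1 seeds and had 0.18 in Col-0 seeds (adjusted p = 0.292). rpoB, for the beta subunit, rose by 0.57 in prt6-1 and had 0.23 in Col-0 (adjusted p = 0.153). It was dim, with 3.99 to 4.69 in seeds and 3.90 to 4.08 in seedlings, so its rise is uncertain. rpoC1, for the beta' subunit, had 0.61 (adjusted p = 0.0511) and -0.24 (adjusted p = 0.428).

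Of the 15 ribosomal protein members, 8 rose and 1 fell in prt6-1 seeds, and 3 rose and 6 fell in Col-0 seeds. rpl14 of the large subunit had 12.54, 12.34 and 12.56 in prt6-1 seeds, against 10.35 and 10.68 in prt6-1 air seedlings, and 12.44, 12.11 and 12.17 in Col-0 seeds, against 11.37 and 10.75 in Col-0 air seedlings. Seeds were higher on every array, by 1.96 (SE 0.19, limma adjusted p = 5.89e-08) and 1.18 (SE 0.19, adjusted p = 2.72e-05), or 3.90-fold and 2.27-fold. rps2 of the small subunit had 9.97, 9.81 and 9.78 in prt6-1 seeds, against 8.28 and 8.17 in prt6-1 air seedlings, and 10.10, 9.61 and 9.67 in Col-0 seeds, against 9.02 and 8.31 in Col-0 air seedlings. It was higher by 1.62 (SE 0.17) and 1.13 (SE 0.17), again without overlap. rpl36 had 1.56 in prt6-1 and 0.74 in Col-0; without Col-0 air replicate 2 the Col-0 value was 0.37 (adjusted p = 0.102). rpl16 rose by 1.19 in prt6-1 and had 0.32 in Col-0 (adjusted p = 0.0803). In prt6-1, rps3 (0.69), rps16 (0.68), rpl22 (0.64) and rps4 (0.55) also rose. rps14 fell by 0.42 in Col-0 and had -0.28 in prt6-1 (adjusted p = 0.0762).

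Position in a shared transcription unit went with these differences in part. The 7 measured members of the rpl23 operon, which joins ribosomal protein genes to rpoA, included 6 called higher and 0 lower in prt6-1, and 2 higher and 0 lower in Col-0. The ndhC operon had 3 of 3 lower in both genotypes, the psbD operon 3 of 3, and the psbE operon 4 of 4. In the atpI operon, atpI, atpH and atpF were lower in seeds of both genotypes, and atpA was lower on all Col-0 seed arrays but overlapped in prt6-1. rps2, just upstream of that operon, was higher. Other operons were mixed. psaA was not called in either genotype while its partner psaB fell, and psaC of the ndhH operon was not called. In the psbB operon, petD had 0.05 in Col-0 and was not called. These uncalled members had low values, at most 6.23 for psaA, 5.22 for psaC and 4.77 for petD on any array. psaB was never below 9.62. Whether psaA, psaC and petD truly departed from their operon partners is therefore uncertain. By transcribing polymerase, 22 of the 27 mainly PEP-dependent members fell in prt6-1 and 23 in Col-0, with none higher; of the 5 mainly NEP-dependent members, 3 rose in prt6-1 and 1 in Col-0, with none lower. These polymerase classes follow textbook promoter assignments and overlap with function, since the mainly NEP class holds 3 of the 4 RNA polymerase members, among them the dim rpoB.

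Of the 7 other members, ycf3, ycf4, cemA and ccsA were lower on all seed arrays than on all seedling arrays. matK overlapped, with 10.62 to 11.50 in seeds and 11.32 to 12.36 in seedlings. cemA, for an envelope protein, fell by 1.72 in prt6-1, and ccsA, needed to attach haem to cytochromes, by 1.70. ycf3, an assembly factor of photosystem I, had 8.11, 7.84 and 7.61 in prt6-1 seeds, against 8.94 and 8.48 in prt6-1 air seedlings, and 7.09, 6.72 and 7.10 in Col-0 seeds, against 9.59 and 8.90 in Col-0 air seedlings. It fell by 0.85 in prt6-1 and by 2.27 in Col-0. clpP, for a subunit of the plastid protease, had 12.70, 12.22 and 12.34 in prt6-1 seeds, against 11.87 and 11.88 in prt6-1 air seedlings, and 11.77, 11.84 and 11.72 in Col-0 seeds, against 11.99 and 11.93 in Col-0 air seedlings. It rose by 0.54 in prt6-1 (SE 0.14, adjusted p = 0.00314) and had -0.19 in Col-0 (adjusted p = 0.269). accD, for a subunit of the plastid acetyl-CoA carboxylase of fatty acid synthesis, had 0.49 in prt6-1 (adjusted p = 0.0944) and -0.37 in Col-0 (adjusted p = 0.198).

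**Figure D2:**
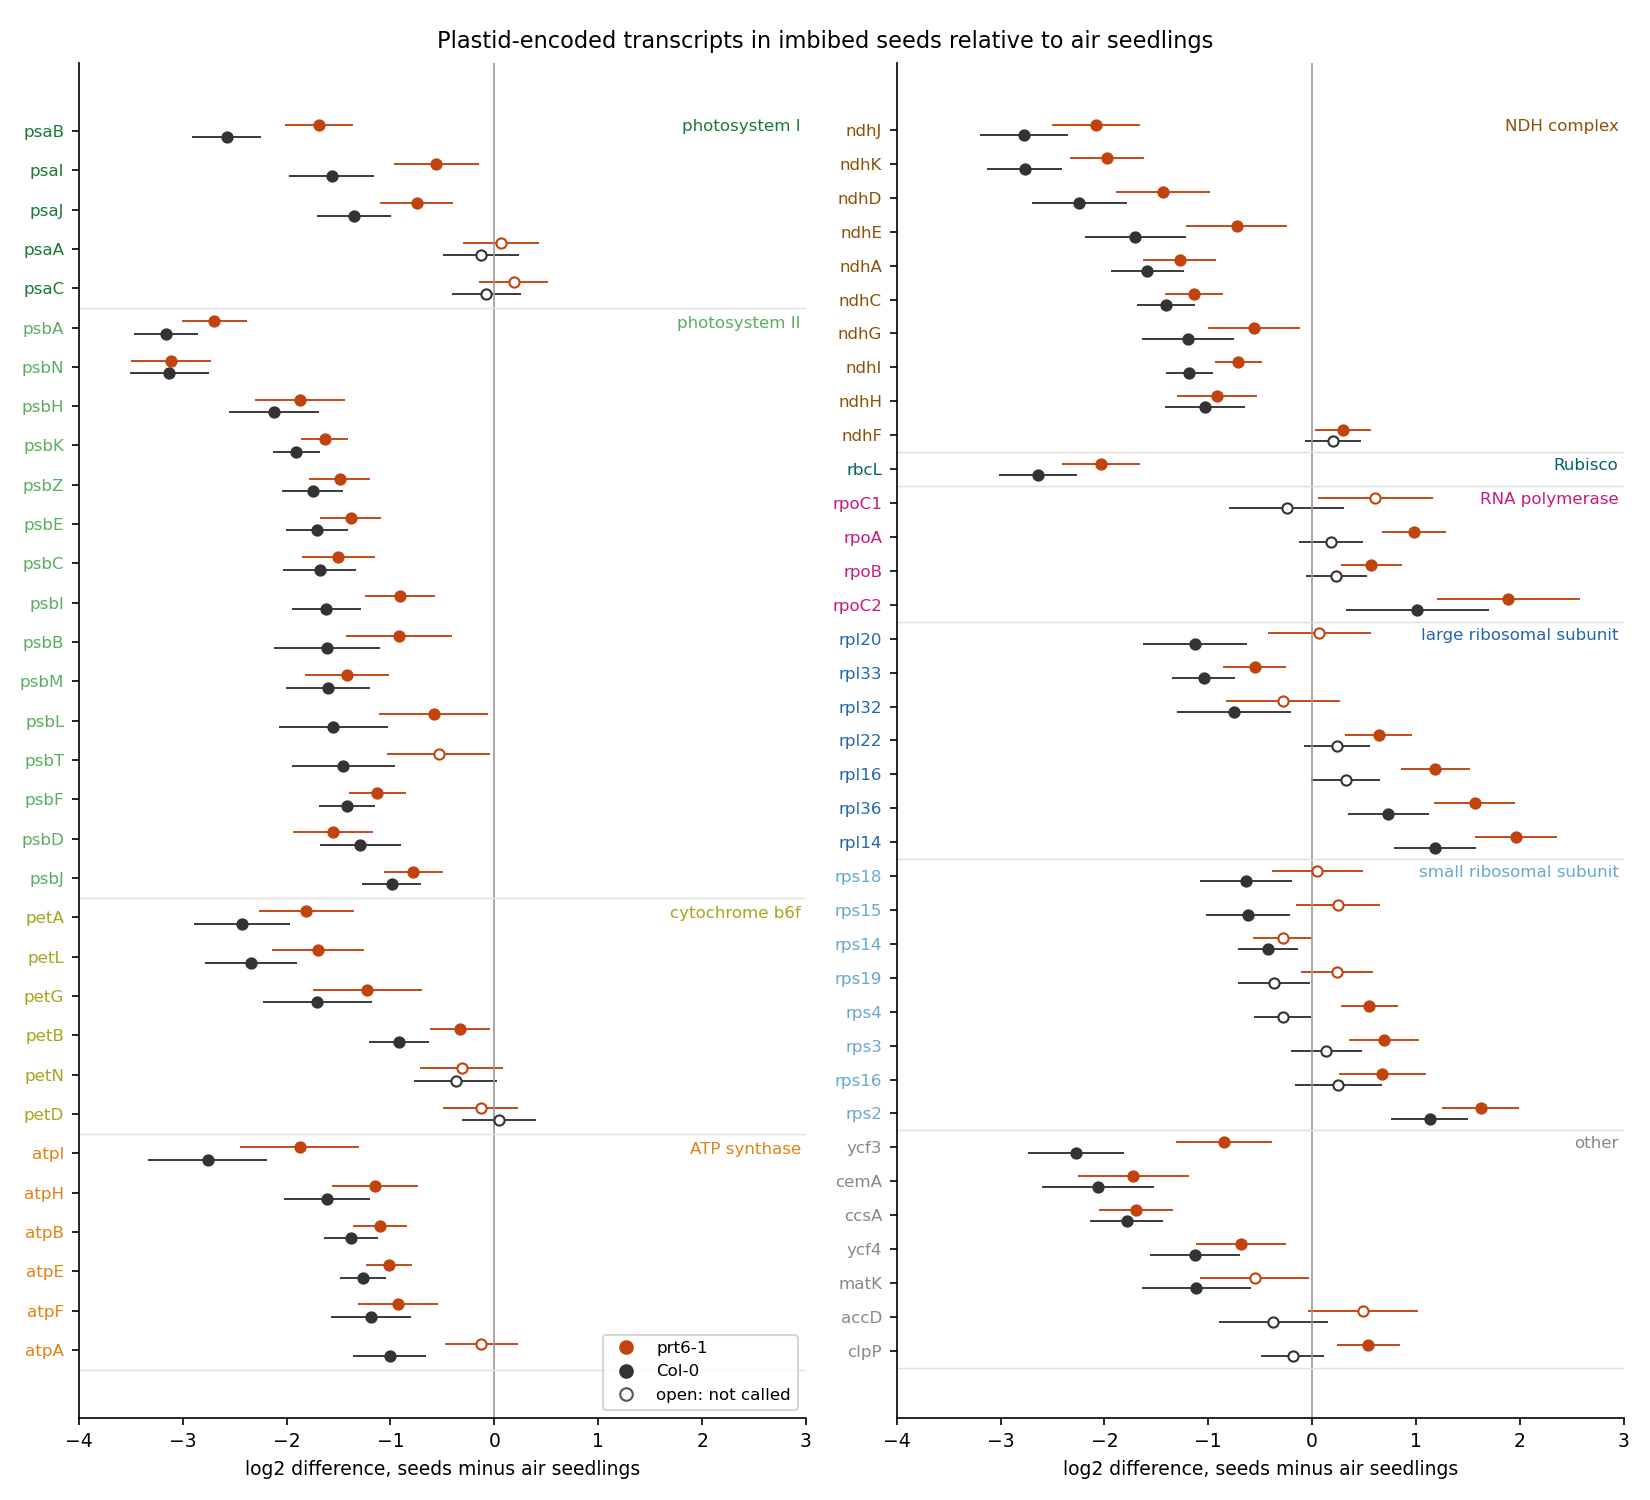
Log2 difference of seeds minus air seedlings for each of the 69 members (x) with its 95% confidence interval, prt6-1 above Col-0, grouped by functional class; filled points were called at adjusted p under 0.05. The photosystem II points all lie left of 0, from -3.16 for psbA in Col-0 upwards, and the points right of 1 are ribosomal and RNA polymerase members.

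The 4 members called higher in Col-0 were among the 13 called higher in prt6-1 (4 of 4 and 4 of 13), and the 41 called lower in prt6-1 were among the 49 called lower in Col-0 (41 of 41 and 41 of 49). In all, 7 members were called in neither genotype. Leaving out each array in turn, 45 of the 54 prt6-1 calls and 47 of the 53 Col-0 calls held in every fit. Without Col-0 air replicate 1, rps18 (-0.52, adjusted p = 0.113), rpl32 (-0.54, adjusted p = 0.176) and rps15 (-0.40, adjusted p = 0.161) were no longer called lower in Col-0. Without prt6-1 air replicate 1, the ycf3 difference in prt6-1 was -0.62 (adjusted p = 0.0611).

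Nuclear genes of the same complexes and the other organelle genome gave the setting. All 6 measured nuclear photosynthesis genes of a list of 40 fell in seeds of both genotypes, with medians of -3.80 in prt6-1 and -4.11 in Col-0. Both measured nuclear genes for plastid ribosomal proteins of a list of 22 also fell, with medians of -1.12 and -1.02. Of 27 nuclear genes of plastid transcription and RNA processing, 2 were measured: AT5G15700 rose by 1.56 and 1.70, and AT5G42310 fell by 0.59 and 0.75. Of 18 probe sets for mitochondrial genes, 7 were called higher and 1 lower in prt6-1 (median 0.43), and 11 higher and 1 lower in Col-0 (median 0.85); the mitochondrial median of Col-0 seeds replicate 1 was 6.30, against 4.98 to 5.29 on the other seed arrays. The 3' minus 5' difference of the actin control was 1.23 to 1.60 in seeds and 0.97 to 1.27 in seedlings, and that of the GAPDH control 0.11 to 0.41 in seeds and -0.37 to -0.08 in seedlings; their part in the plastid differences was not tested.

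**Figure D3:**
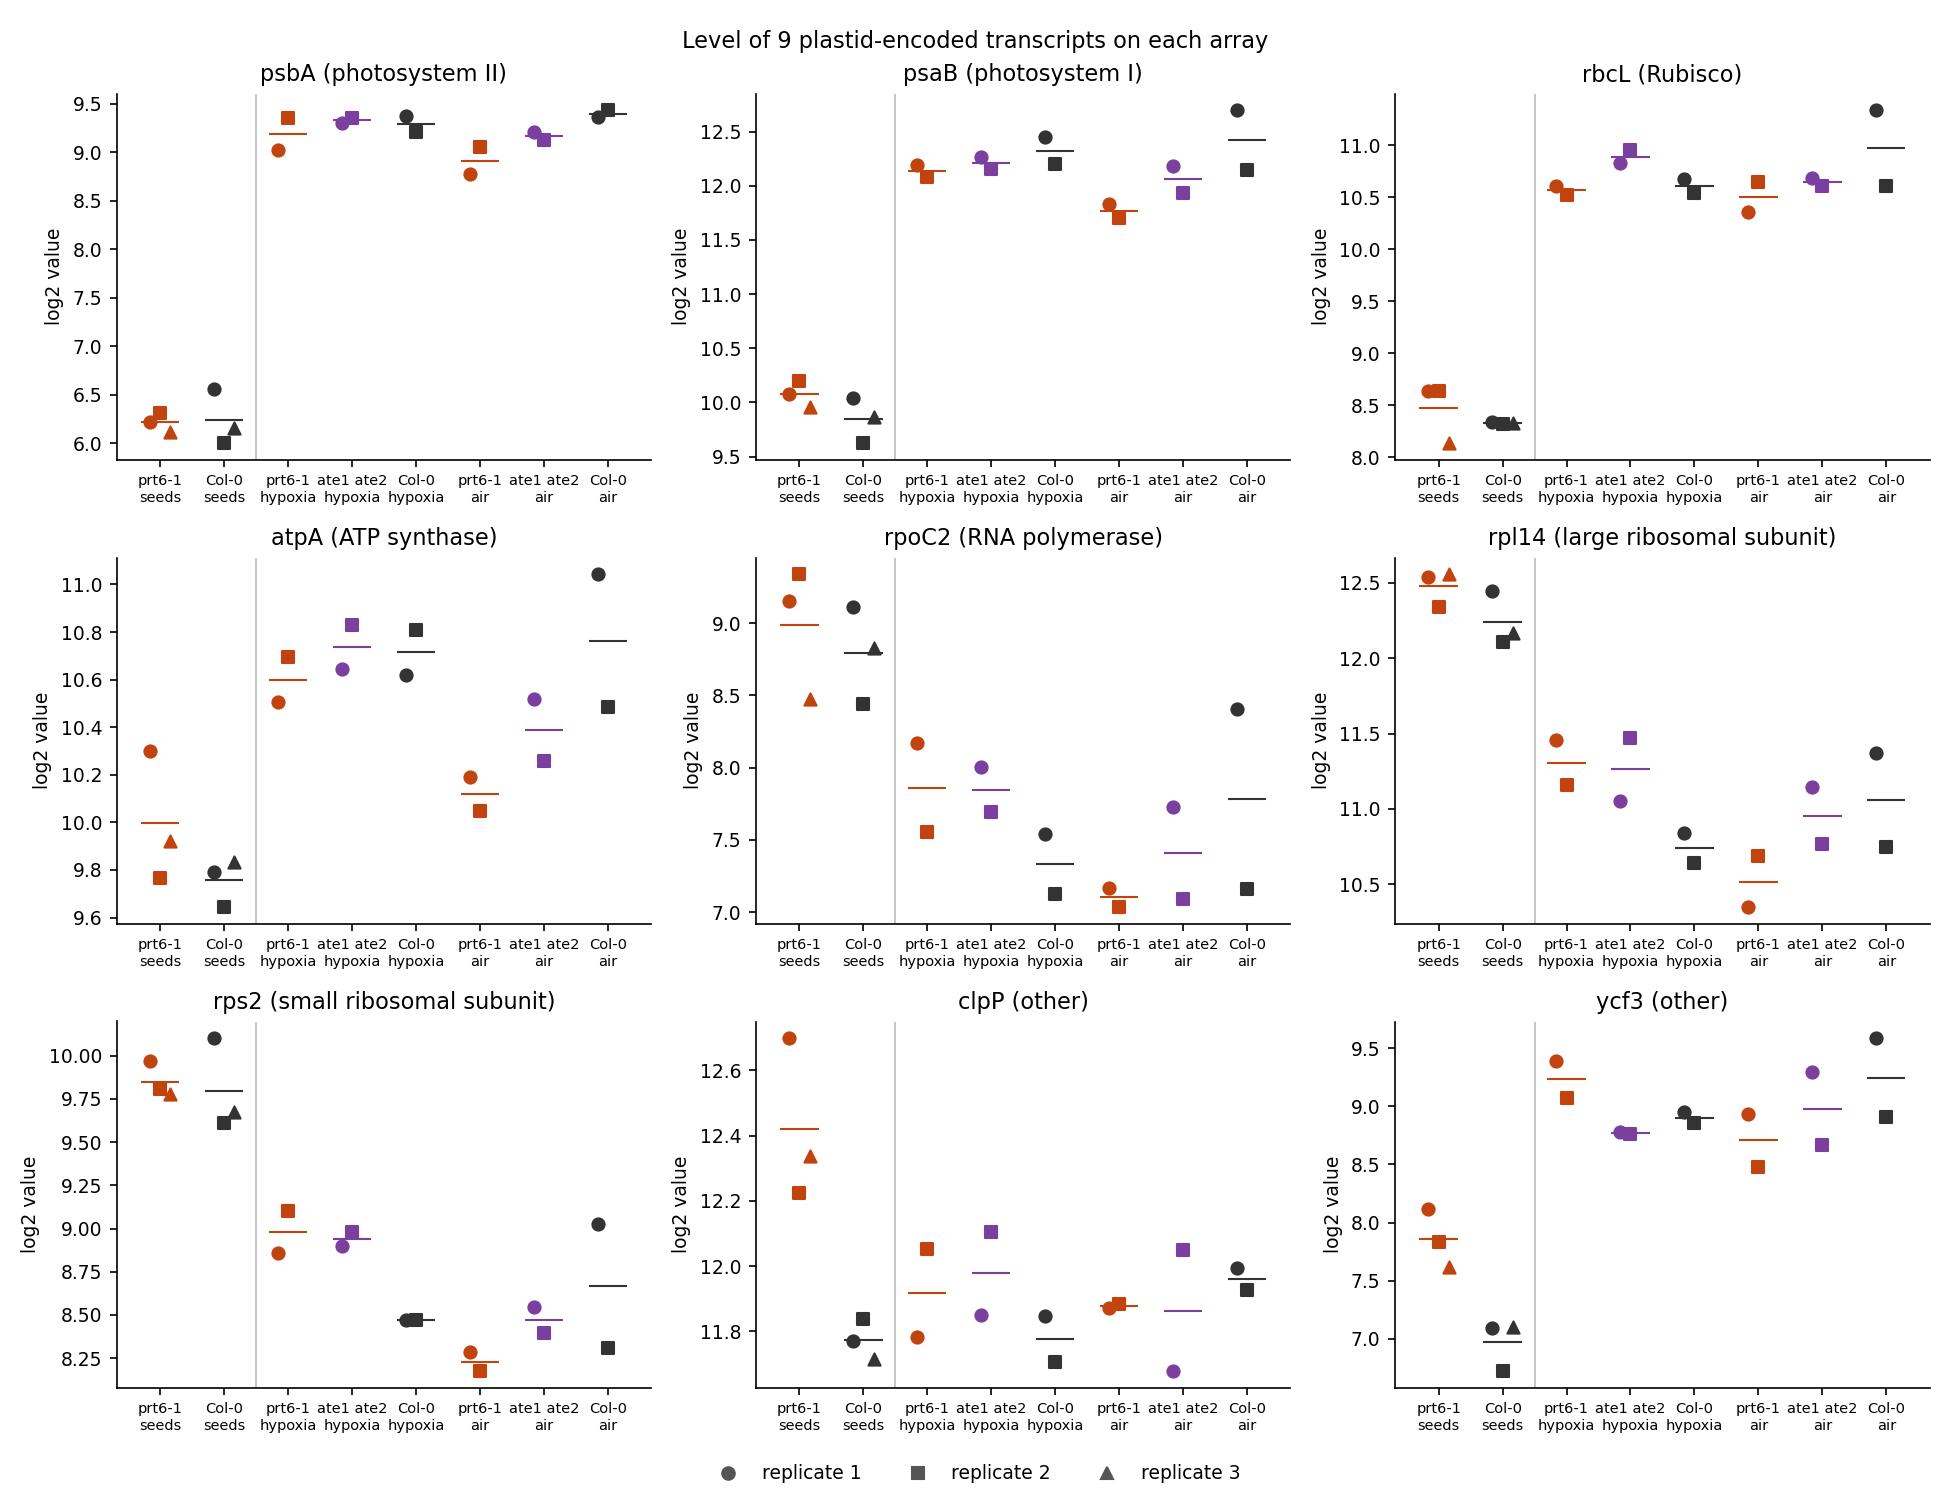
Log2 level of 9 members (y) on each array by group (x), with replicate symbols and a line at the group mean. psbA, psaB and rbcL are lower on all 6 seed arrays, rpoC2, rpl14 and rps2 are higher on all 6, and clpP and ycf3 are higher in prt6-1 seeds than in Col-0 seeds.

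Within seeds, few plastid members were called between prt6-1 and Col-0. In prt6-1 seeds, 2 members rose, ycf3 and clpP, and 0 fell, against 2.19% of all probe sets called higher and 1.91% lower. The ycf3 values given above did not overlap between the genotypes (difference 0.88, SE 0.16, limma adjusted p = 0.0225; 1.84-fold), and neither did those of clpP (0.65, SE 0.14, adjusted p = 0.0397; 1.56-fold). The second-largest difference in size, between ycf3 and clpP, was that of psbD, with 4.80, 5.17 and 5.32 in prt6-1 seeds, against 5.72, 5.53 and 6.01 in Col-0 seeds. Its arrays did not overlap, and the difference of -0.65 (SE 0.17) had an adjusted p of 0.0765.

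Small positive differences were frequent among RNA polymerase and ribosomal members. NDH members went both ways, from 0.43 for ndhK to -0.14 for ndhH. Of the 69 members 48 were above 0 in prt6-1 seeds, against 46.6% of all probe sets, with a median of 0.16 (-0.02 over all probe sets). The 4 RNA polymerase members had a median of 0.35 and were all above 0, and 14 of 15 ribosomal members were above 0 (median 0.28), whereas 4 of 15 photosystem II members were (median -0.06). rpoC1 had 0.43 (adjusted p = 0.304), accD 0.36 (adjusted p = 0.23), rpl16 0.35 (adjusted p = 0.112), rpoB 0.32 (adjusted p = 0.328) and petB 0.25 (adjusted p = 0.272). The other genes followed by rule were nearer 0: atpB 0.15, rbcL 0.14, ndhF 0.12, psbA -0.02, rps14 -0.06 and psaA -0.23. All 3 prt6-1 seed arrays were above all 3 Col-0 seed arrays for 13 members (18.8%, against 12.3% of all probe sets) and below them for 3 (4.35%, against 13.5%).

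Each of these calls depended on single arrays. clpP was not called when any one of the 6 seed arrays was left out (0.51 to 0.74, adjusted p = 0.0507 to 0.134). ycf3 was not called without Col-0 seeds replicate 2 (0.76, adjusted p = 0.0718), Col-0 seeds replicate 3 (0.95, adjusted p = 0.0611), prt6-1 seeds replicate 1 (0.75, adjusted p = 0.0839) or prt6-1 seeds replicate 2 (0.89, adjusted p = 0.0795). The number of members called was 5 without Col-0 seeds replicate 1, 1 without prt6-1 seeds replicate 3 and 0 without each of the other 4. The mitochondrial probe sets had a median of -0.37, with 0 of 18 called and 1 at an unadjusted p under 0.05, and none of the measured nuclear photosynthesis, ribosomal or transcription genes was called by limma.

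In air seedlings 7 plastid members were called lower in prt6-1 than in Col-0, and none of these calls was kept in every fit with 1 array left out or when all 18 arrays were fitted at once. In prt6-1, 7 members fell and 0 rose, against 1.97% of all probe sets called lower and 2.18% higher. The median difference was -0.38 (-0.01 over all probe sets), and 66 of 69 members were below 0, against 52.2% of all probe sets. The array medians of prt6-1 (9.78 and 9.69) lay close to that of Col-0 air replicate 2 (9.81) and well below that of Col-0 air replicate 1 (10.44). The 7 span photosystems, ATP synthase, the NDH complex and the ribosome: ndhE, rpl20, psbL, ndhG, psaB, atpA and psbA. No RNA polymerase, cytochrome b6f or small ribosomal member was called.

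ndhE, an NDH subunit, had 5.07 and 5.21 in prt6-1 air seedlings, against 6.50 and 5.79 in Col-0 air seedlings. The difference was -1.003 (SE 0.22, limma adjusted p = 0.0183), with both prt6-1 arrays below both Col-0 arrays. rpl20, of the large ribosomal subunit, had 6.78 and 6.96 in prt6-1, against 7.93 and 7.39 in Col-0 (-0.78, SE 0.20, adjusted p = 0.0411). psbL, a small photosystem II subunit, had 9.50 and 9.86 in prt6-1, against 10.52 and 10.23 in Col-0 (-0.70, SE 0.18, adjusted p = 0.0431). For each of these, replicate 1 of Col-0 was the highest of the 4 arrays. ndhG had 6.27 and 6.26 in prt6-1, against 7.22 and 6.68 in Col-0 (-0.69, SE 0.17, adjusted p = 0.0329). psaB (-0.66, SE 0.16, adjusted p = 0.0288) and atpA (-0.64, SE 0.16, adjusted p = 0.0366) showed the same order of arrays. psbA was the exception, since its 2 Col-0 arrays were close, at 9.36 and 9.43, against 8.77 and 9.05 in prt6-1 (-0.49, SE 0.13, adjusted p = 0.0459).

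The class medians ran from -0.25 for the other members to -0.45 for the large ribosomal subunit, with -0.47 for the single member rbcL. Of the genes followed by rule that were not called, rpl16 had -0.52 (adjusted p = 0.136), accD -0.51, rbcL -0.47, psaA -0.42, rpoC1 -0.42, psbD -0.39, petB -0.33, rps14 -0.20 and atpB -0.14. clpP (-0.08), rpoB (-0.01) and ndhF (0.02) were near 0. Both prt6-1 arrays were below both Col-0 arrays for 44 members (63.8%, against 23.0% of all probe sets). The count of calls moved with the Col-0 air arrays: without replicate 1 it was 0 and the median -0.12, and without replicate 2 it was 24 and the median -0.59. Leaving out prt6-1 air arrays gave 0 for replicate 1 and 1 for replicate 2, and the count was 4 without either hypoxia array of Col-0 or of ate1 ate2, and none of the 7 calls held in every such fit.

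In ate1 ate2 air seedlings 0 members were called against Col-0 by limma, while 3.71% of all probe sets were, and 8 had an unadjusted p under 0.05, against 15.4% of all probe sets. The median difference was -0.19, with 60 of 69 members below 0, against 52.1% of all probe sets. The median moved to 0.04 with replicate 1 of Col-0 in air left out and to -0.41 with its replicate 2 left out; leaving out ate1 ate2 air replicate 1 gave -0.35 and its replicate 2 gave -0.00. The 3 largest differences were those of psaJ, a small photosystem I subunit (-0.54, adjusted p = 0.0574), ndhE (-0.51, adjusted p = 0.274) and atpI (-0.48, adjusted p = 0.496). psaJ had 10.47 and 10.25 in ate1 ate2, against 10.85 and 10.95 in Col-0, without overlap. Both ate1 ate2 arrays were below both Col-0 arrays for 9 members (13%, against 21.0% of all probe sets). The call count was 9 with Col-0 air replicate 2 left out, 4 with the first air array of ate1 ate2 left out and 1 without either prt6-1 air array. Since prt6-1 and ate1 ate2 were set against the same 2 Col-0 arrays, their directions are not independent.

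**Figure D4:**
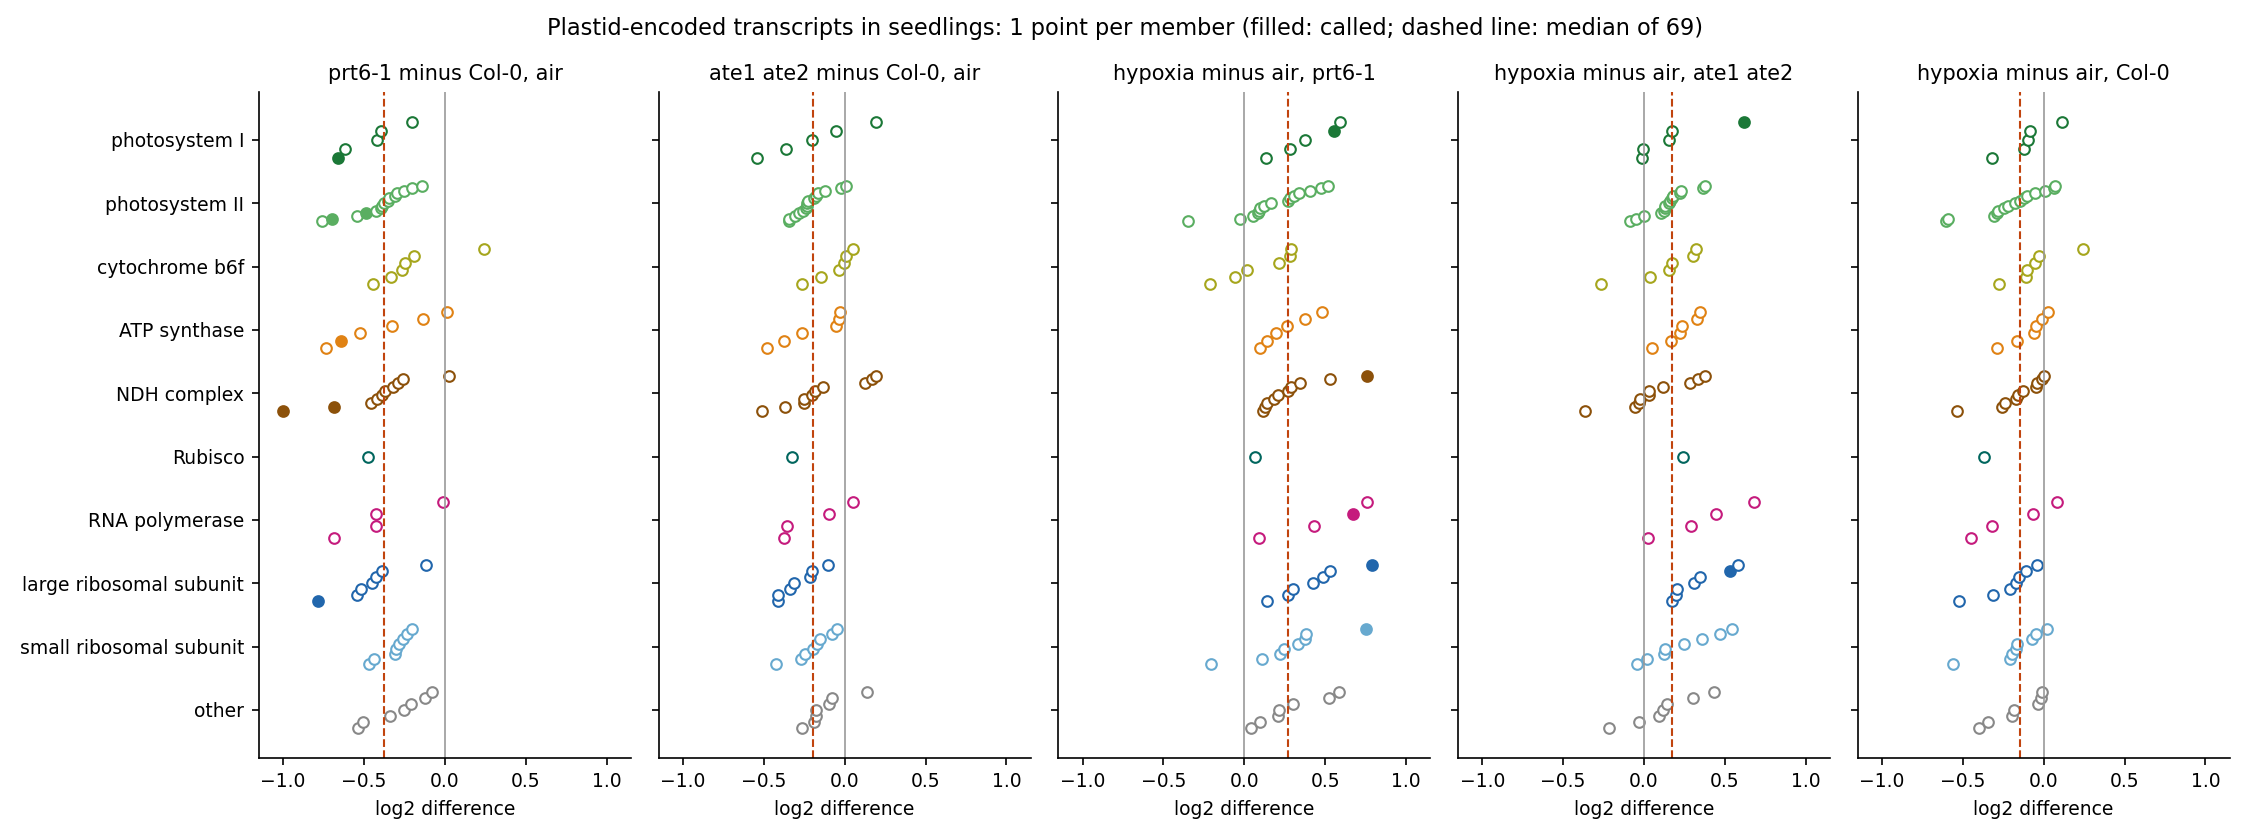
Log2 differences (x) of the 69 members by functional class (y) in 5 seedling comparisons, with 1 point per member, filled where called, and a dashed line at the median. The prt6-1 minus Col-0 panel is centred at -0.38 and the hypoxia minus air panels at 0.27 in prt6-1, 0.17 in ate1 ate2 and -0.15 in Col-0.

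A direct comparison of the mutants in air gave 0 calls by limma, with 0.127% of all probe sets called, and 8 members at an unadjusted p under 0.05, against 7.98% of all probe sets. ate1 ate2 was above prt6-1 for 61 of 69 members, against 50.4% of all probe sets, with a median of 0.19, and both ate1 ate2 arrays were above both prt6-1 arrays for 29 (42.0%, against 18.6%). The largest differences were in ndhJ (0.61, adjusted p = 0.318), ndhK (0.54, adjusted p = 0.331) and ndhE (0.49, adjusted p = 0.601). Under hypoxia the same comparison gave 0 calls by limma, with 0.163% of all probe sets called, and 7 members at an unadjusted p under 0.05, against 8.45%. The median was 0.06, with 41 of 69 above 0, against 50.8%, and the arrays did not overlap, with ate1 ate2 higher, for 19 members (27.5%, against 22.6%). The largest differences were those of petL (0.83, adjusted p = 0.229), ndhE (0.69, adjusted p = 0.324) and psbT (0.66, adjusted p = 0.411).

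After 2 h of argon few plastid members were called against air. Those called were higher under hypoxia in prt6-1 or ate1 ate2, and none of these calls held in every alternative fit. In prt6-1 seedlings 5 members rose under hypoxia and 0 fell, against 1.75% of all probe sets called higher and 2.32% lower, with a median of 0.27 (64 of 69 above 0, against 46.1% of all probe sets). In ate1 ate2 seedlings 2 rose and 0 fell, against 1.61% called higher and 1.31% lower, with a median of 0.17 (57 above 0, against 46.0%). In Col-0 seedlings 0 members were called by limma, while 2.10% of all probe sets were. At an unadjusted p under 0.05 there were 7, against 10.5%. The Col-0 median was -0.15 (60 below 0, against 52.3%). Each genotype's air arrays also enter the comparisons of genotypes in air, so these differences and those in air are not independent.

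In prt6-1, the called members came from 5 classes. rpl14 had 11.46 and 11.16 under hypoxia, against 10.35 and 10.68 in air (0.79, SE 0.20, limma adjusted p = 0.0426; 1.73-fold). ndhG had 6.85 and 7.19, against 6.27 and 6.26 (0.76, SE 0.17, adjusted p = 0.0198). rps2 had 8.86 and 9.10, against 8.28 and 8.17 (0.75, SE 0.17, adjusted p = 0.0239). The hypoxia arrays were above the air arrays for each. ndhG was also called lower in prt6-1 than in Col-0 in air (-0.69), from the same prt6-1 air arrays. rpoA had 12.61 and 12.33 under hypoxia, against 11.56 and 12.03 in air (0.67, SE 0.16, adjusted p = 0.0248), and psaC had 4.87 and 5.22, against 4.64 and 4.34 (0.56, SE 0.13, adjusted p = 0.0272). psaC was dim, with 4.34 to 5.22 over the seedling arrays, so its rise is uncertain. Of the genes followed by rule, psaA (0.59, adjusted p = 0.0807), rpl16 (0.53), psbD (0.47), rpoC1 (0.43), accD (0.30), psbA (0.28), petB (0.28), atpB (0.14), rps14 (0.11), ndhF (0.11), rpoB (0.09), rbcL (0.07) and clpP (0.04) were not called. By class the median was highest for RNA polymerase (0.55) and the large ribosomal subunit (0.42), and lowest, rbcL aside, for cytochrome b6f (0.12). Both hypoxia arrays were above both air arrays for 45 members (65.2%, against 19.7% of all probe sets).

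In ate1 ate2, psaJ had 10.91 and 11.05 under hypoxia, against 10.47 and 10.25 in air (0.62, SE 0.15, limma adjusted p = 0.0343), and rpl33, of the large ribosomal subunit, had 11.70 and 11.57, against 11.31 and 10.90 (0.53, SE 0.13, adjusted p = 0.0407). Against Col-0 in air, from the same ate1 ate2 air arrays, psaJ had -0.54 and rpl33 -0.41, neither called. The largest hypoxia differences also included rpoC1 (0.68, adjusted p = 0.196) and rpl20 (0.58, adjusted p = 0.162), which were not called. RNA polymerase (0.37) and the large ribosomal subunit (0.31) again had the highest class medians, and 21 members (30.4%, against 20.7% of all probe sets) were higher on both hypoxia arrays. In Col-0 the corresponding class medians were -0.19 and -0.17, and the largest differences were those of psbN (-0.60, adjusted p = 0.133), psbT (-0.59, adjusted p = 0.338) and rps16 (-0.56, adjusted p = 0.227). Both Col-0 hypoxia arrays were below both air arrays for 11 members (15.9%, against 19.3%) and above them for 2, against 18.5%.

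Leaving out arrays moved these counts. Arrays of other genotypes do not enter the hypoxia difference of a genotype. Leaving 1 of them out could change only the variance estimate shared by the fit. In prt6-1 the count was 1 when either of its air arrays or its hypoxia replicate 2 was left out, 2 for its hypoxia replicate 1, and 8 for either Col-0 air array. In ate1 ate2 it was 0 without ate1 ate2 air replicate 2, either ate1 ate2 hypoxia array or either Col-0 hypoxia array, 1 without either prt6-1 hypoxia array, and 4 without ate1 ate2 air replicate 1 or either Col-0 air array. The ate1 ate2 median was 0.02 without air replicate 2 and 0.33 without air replicate 1 of that genotype. In Col-0 the median was 0.09 with air replicate 1 left out and -0.36 with air replicate 2 left out, where 3 members were called; 1 was called with hypoxia replicate 1 left out. The root markers EXPA7 and EXPA18 were both called lower under hypoxia in prt6-1 (-0.75 and -1.23) and in ate1 ate2 (-1.06 and -1.21) and had -0.24 and -0.61 in Col-0, where neither was called. The 25S rRNA control was 12.84 to 13.47 on hypoxia arrays and 12.03 to 12.81 on air arrays. Their part in the plastid values was not tested.

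The response of each mutant was tested against that of Col-0. For the prt6-1 response less that of Col-0, 0 members were called by limma, while 0.167% of all probe sets were, and 15 had an unadjusted p under 0.05, against 8.12%. The median was 0.40, with 67 of 69 above 0, against 46.4% of all probe sets. rpoC2 (1.21, adjusted p = 0.514), rpl14 (1.10, adjusted p = 0.27) and rps2 (0.94, adjusted p = 0.267) had the largest values. For ate1 ate2, 0 members were called by limma, while 0.308% of all probe sets were, and 13 had an unadjusted p under 0.05, against 7.65%. The median was 0.32 and 64 were above 0, against 47.1%, with rpl20 (1.10, adjusted p = 0.215), rpoC1 (1.00, adjusted p = 0.488) and psbT (0.96, adjusted p = 0.479) largest. Leaving out replicate 2 of Col-0 in air, 3 and 4 members were called for prt6-1 and ate1 ate2, with medians of 0.64 and 0.56; leaving out its replicate 1, none was, with medians of 0.22 and 0.10. The ate1 ate2 median was 0.52, with 1 member called, when its own air replicate 1 was dropped, and 0.18 when its air replicate 2 was. A larger hypoxia response in the mutants was thus not shown for any single plastid gene.

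Under hypoxia, with 2 arrays per group, no plastid member was called between either mutant and Col-0. Against Col-0, prt6-1 had 0 members called by limma, while 5.19% of all probe sets were, and 5 at an unadjusted p under 0.05, against 17.1%. The median was 0.04, with 42 of 69 above 0, against 45.6%. The largest differences were in rpl14 (0.56, adjusted p = 0.147), rpoC2 (0.53, adjusted p = 0.459) and rps2 (0.51, adjusted p = 0.12). rpl14 had 11.46 and 11.16 in prt6-1 hypoxia, against 10.84 and 10.64 in Col-0 hypoxia, without overlap. ate1 ate2 had 0 members called by limma, while 2.62% of all probe sets were, and 8 at an unadjusted p under 0.05, against 12.9%. Its median was 0.14, with 55 of 69 above 0, against 44.5%, and the largest differences were in rpl20 (0.69, adjusted p = 0.103), psbT (0.68, adjusted p = 0.187) and rpoC1 (0.64, adjusted p = 0.26). Both ate1 ate2 arrays were above both Col-0 arrays for 30 members (43.5%, against 19.3% of all probe sets), and both prt6-1 arrays for 12 (17.4%, against 19.8%). Leaving out either Col-0 air array gave 1 call for prt6-1 and 2 for ate1 ate2, and leaving out Col-0 hypoxia replicate 1 gave 1 for ate1 ate2. No mitochondrial probe set and no measured nuclear gene of the photosynthesis, plastid ribosome or plastid transcription lists was called in any seedling comparison of genotypes or of hypoxia with air.

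The prt6-1 difference from Col-0 was set side by side in seeds and in air seedlings. The difference in seeds less that in seedlings was called above 0 for 9 members and below 0 for 0, against 2.55% and 3.06% of all probe sets, with a median of 0.49 (-0.01 over all probe sets) and 67 of 69 above 0, against 49.3%. The 9 come from photosystem I (psaI, psaB), ATP synthase (atpA), RNA polymerase (rpoA), the ribosome (rpl20, rpl16, rps4) and the other members (ycf3, clpP), with none from photosystem II, the cytochrome b6f complex or the NDH complex. ycf3 had 0.88 in seeds and -0.54 in seedlings, a difference of 1.42 (SE 0.31, limma adjusted p = 0.0118). rps4 had 0.83 (SE 0.18, adjusted p = 0.0122), rpl16 0.87 (SE 0.22, adjusted p = 0.029) and rpoA 0.80 (SE 0.21, adjusted p = 0.0317). clpP had 0.73 (SE 0.20, adjusted p = 0.0457), nearly all of it from seeds. The median was highest for the 4 RNA polymerase members (0.83) and the large ribosomal subunit (0.78), and lowest for photosystem II (0.27).

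Of the genes followed by rule that were not called, accD had 0.87 (adjusted p = 0.18), rpoC1 0.85, rbcL 0.61, petB 0.59 (adjusted p = 0.0892), psbA 0.46, rpoB 0.34, atpB 0.28, psaA 0.19, rps14 0.14, ndhF 0.10 and psbD -0.27. The seedling term of this contrast carries the Col-0 air arrays: leaving out their replicate 1 gave 0 calls and a median of 0.29, and leaving out replicate 2 gave 19 and 0.75. Dropping prt6-1 air replicate 1 gave 1 call and its replicate 2 gave 2. There were 3 calls without prt6-1 seeds replicate 1, 4 without Col-0 seeds replicate 2, 5 without Col-0 seeds replicate 3 or prt6-1 seeds replicate 2 and 14 without Col-0 seeds replicate 1, and none of the 9 calls held in every such fit.

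**Figure D5:**
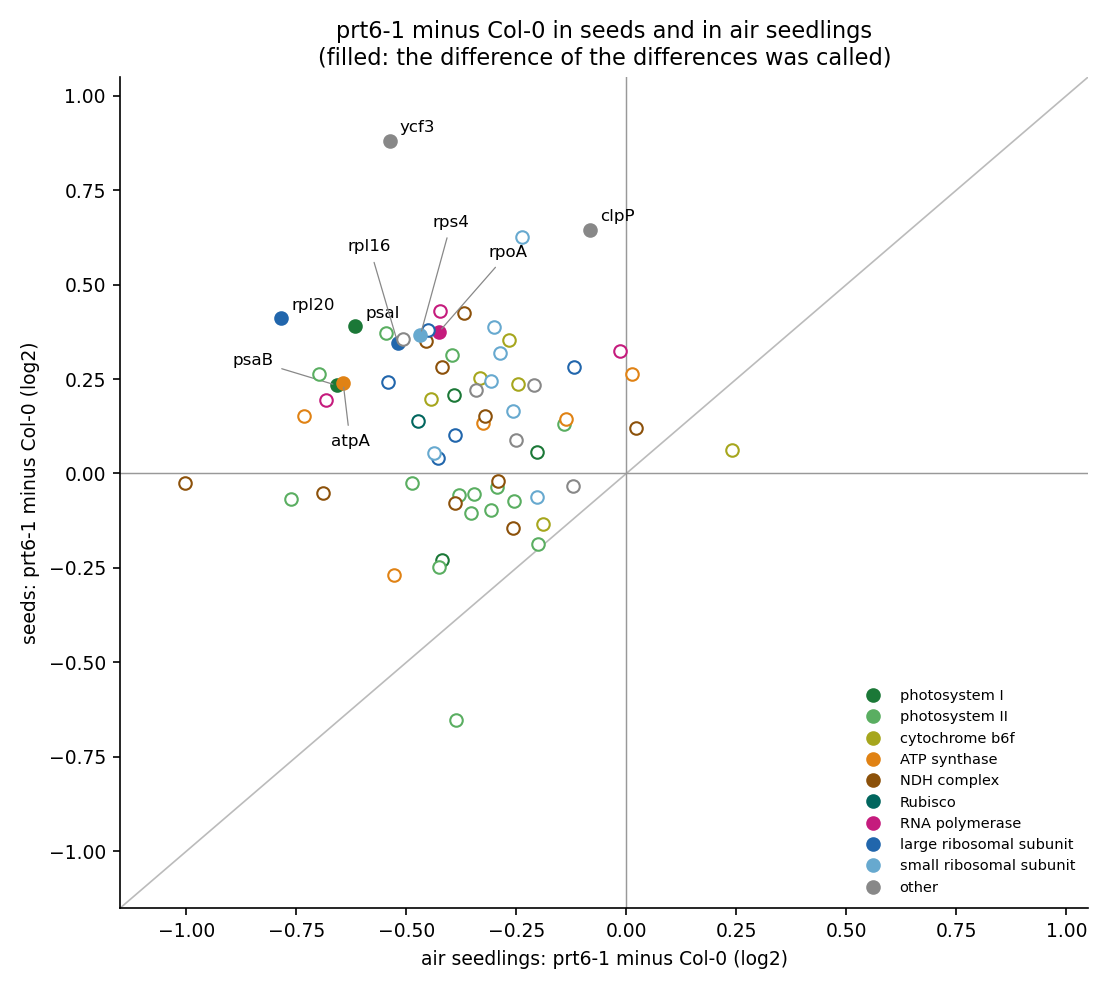
Log2 difference prt6-1 minus Col-0 of each of 69 members in air seedlings (x) and in seeds (y), coloured by class; filled and named points were called for the difference between the 2. Of the 69 points 67 lie above the diagonal, and ycf3, at -0.54 in seedlings and 0.88 in seeds, lies furthest from it.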

How the data were processed

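Biotin-labelled cRNA made with a 3' in vitro transcription kit from total RNA was hybridised to ATH1 arrays, per the labels' protocols. The authors deposited 1 table of log2 values per probe set, made with RMA in the affy package, per the submitters' processing notes; versions are not given in the sources used here. Scanner files were not used here, so signal over background is unknown and array number limits the precision: 3 arrays per seed group and 2 per seedling group, which the series' design text calls biologically independent. By mean level, 8 members were among the dim probe sets that 1 alternative left out.

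Of 22810 probe sets, 64 controls were left out. Genes came from the platform annotation: 13513 probe sets had 1 gene, 503 several and 8730 none. Members are those with 1 plastid gene. limma 3.58.1 in R 4.3.3 (lmFit, contrasts, eBayes) was fitted to the 6 seed arrays, the 12 seedling arrays or, for seeds against seedlings and the interaction with prt6-1, all 18; p-values were two-sided and adjusted by Benjamini-Hochberg over all 22746 probe sets, and called means adjusted p under 0.05. The code was tested on simulated data. Named genes are the 12 largest rises and 12 largest falls among called members, the 3 largest differences where fewer than 3 were called, and, where measured, psaA, psbA, psbD, rbcL, atpB, petB, ndhF, rpoB, rpoC1, accD, clpP, rps14 and rpl16; other members named beside a small count were picked after their values were seen. The members, lists and rules were chosen with earlier results of these data known. Alternatives were quantile renormalization, median centring, leaving out dim probe sets, single-gene probe sets alone, a prior with an intensity trend, a robust prior, a replicate block, array weights, adjusted p under 0.01, other sets of arrays in the fit, and leaving out each array.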

Additional observations from a re-analysis of the deposited data

Results flagged for a closer look

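The prt6-1 minus Col-0 difference in seeds less that in air seedlings was called by limma for 9 members, each above 0 on the log2 scale. The values were 1.42 for ycf3, 1.20 for rpl20, 1.01 for psaI, 0.89 for psaB, 0.88 for atpA, 0.87 for rpl16, 0.83 for rps4, 0.80 for rpoA and 0.73 for clpP. What set them apart was the test of the difference between the 2 tissues. In seeds these members were higher in prt6-1 by 0.23 to 0.88, and in air seedlings they were lower in prt6-1 by values from -0.78 to -0.08. Leaving out Col-0 air replicate 1 gave 0 calls, and leaving out its replicate 2 gave 19.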

How the results depend on the processing

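The count of members called depended on the settings. Under each setting that kept all arrays, every median difference moved by less than the SD between replicate array medians (0.29 to 0.30). That SD exceeds several of the seedling medians, so whether those small medians held was not settled by this rule. An intensity trend, a robust prior, a stricter threshold and single-gene probe sets alone leave each member's difference unchanged, so they could not move the median. In seeds, prt6-1 against Col-0 had 2 members called, 6 with an intensity trend and 5 in 1 fit of all 18 arrays. In air, prt6-1 against Col-0 had 7, against 4 with median centring, 4 with array weights, 14 with a trend, 4 with only the arrays compared and 0 when all 18 were fitted at once; ate1 ate2 against Col-0 had 0, and 2 with a trend. Under hypoxia, prt6-1 against Col-0 had 0, 1 with a trend and 3 with only the arrays compared, ate1 ate2 against Col-0 had 0, 1 with a trend, 1 with weights and 7 with only the arrays compared, and ate1 ate2 against prt6-1 had 0, and 1 with only the arrays compared. For hypoxia against air, prt6-1 had 5, and 1 in the fit of all arrays, ate1 ate2 had 2, and 0 with median centring and in that fit, and Col-0 had 0, and 1 with only the arrays compared. At an adjusted p under 0.01 the counts were 0 in seeds, in both hypoxia responses with calls, in air seedlings and for the 9 members whose prt6-1 difference depended on tissue.

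Over all probe sets, deviations of same-numbered arrays from their group means correlated at -0.23 to 0.26 over 15 pairs of seedling groups and at -0.08 to -0.02 over 3 pairs in seeds, and the labels tie the numbers to nothing shared, so the fits have no replicate block. Over the 69 members alone the correlations were -0.23 to 0.50 in seedlings, with 12 of 15 above 0, and 0.16 to 0.26 in seeds, so a shared replicate term in the plastid values was not settled. With the replicate block the count was 9 for hypoxia in prt6-1, 1 for ate1 ate2 against Col-0 in air and 1 under hypoxia, and 17 for the prt6-1 difference between tissues. In seeds it was 2, with clpP no longer called (0.65, adjusted p = 0.0767 by limma).

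With 1 array left out at a time, counts ran from 0 to 5 for prt6-1 against Col-0 in seeds, 0 to 24 in air and 0 to 1 under hypoxia, and from 0 to 9 for ate1 ate2 against Col-0 in air and 0 to 2 under hypoxia. They ran from 1 to 8 for hypoxia in prt6-1, 0 to 4 in ate1 ate2 and 0 to 3 in Col-0, from 0 to 3 and 0 to 4 for the prt6-1 and ate1 ate2 responses against that of Col-0, and from 0 to 19 for the prt6-1 difference between tissues. The medians ran from -0.59 to -0.12 for prt6-1 against Col-0 in air, from -0.41 to 0.04 for ate1 ate2, and from 0.29 to 0.75 for the difference between tissues. Seeds against seedlings kept 48 to 56 calls in prt6-1 and 52 to 55 in Col-0. Signal over background is unknown here, and with 2 arrays per seedling group and Col-0 air arrays that differ, differences under about the replicate spread could not be resolved.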
